A study of Mus musculus with 20 samples.

Results

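The growth hormone, STAT5 and IGF1 axis of the liver was followed through 10 genes of the 27573 gene names on the array. A probe belonged to the axis where its gene name was Ghr, Stat5a, Stat5b, Igf1, Igfals, Socs2, Cish, Socs3, Bcl6 or Cux2, or an older symbol of one of these. This rule for probes used no measured value, but the 10 genes were chosen with earlier results of these data known. The rule found 20 probes, and 10 of the 10 genes passed the filter on dim probes, which kept 17552 genes in all. Cux2 passed it only through knockout mice on Western diet, the group where it is high. Liver RNA came from 20 male mice aged 28 weeks on a mixed Sv129/C57Bl6J background. The 4 groups of 5 mice were wild-type mice on normal diet, wild-type mice on Western diet, LXR-/- mice on normal diet and LXR-/- mice on Western diet, each diet being given for 7 weeks. The LXR-/- mice, called knockout below, lack the liver X receptors LXR alpha and LXR beta, nuclear receptors for oxidised cholesterol. Each mouse had its own single-colour Agilent array, and the arrays lay on 6 slides.

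Growth hormone binds its receptor Ghr on hepatocytes, which activates the kinase JAK2 and the transcription factors STAT5A and STAT5B. In liver, STAT5B then raises transcription of Igf1, which encodes the main circulating growth factor downstream of growth hormone, and of Igfals, whose product keeps IGF1 in a large circulating complex. The same signal induces its own inhibitors of the SOCS family. In male mice growth hormone is released in pulses and in females more evenly, and this pattern sets the sex bias of many liver genes, with the repressors BCL6 (higher in male liver) and CUX2 (specific to female liver) acting beside STAT5B.

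STAT5 dimers bind the palindrome TTCNNNGAA, and the starts of the member genes were searched for these letters to show which of them carry it nearby. RefSeq windows of 300 bases (250 before to 50 after a transcript start, GRCm38.p6) were given for 9 of the 10 members, 16 windows in all. The motif is a palindrome, so both strands read alike. It was found in 6 windows of 4 members (Cish, Igfals, Socs3 and Bcl6), against 8.3% of all 32851 windows. The only Cish window and the second Bcl6 window held it 2 and 3 times, and 0.457% of all windows held it at least 2 times. The stretches below show these matches in capitals, with Igfals and Socs3 for comparison.
Cish, chr9:107296654-107296683, plus strand: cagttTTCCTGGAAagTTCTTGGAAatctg
Igfals, chr17:24878163-24878191, plus strand: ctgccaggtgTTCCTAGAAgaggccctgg
Socs3, chr11:117969502-117969530, minus strand: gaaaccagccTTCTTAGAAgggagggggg
Bcl6, chr16:23981433-23981461, minus strand: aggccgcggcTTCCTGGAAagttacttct
Bcl6, chr16:23981387-23981415, minus strand: ggcaggagtgTTCTGTGAAatccttagag
Bcl6, chr16:23981353-23981381, minus strand: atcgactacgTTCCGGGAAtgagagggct
The matches at Cish lay at the transcript start itself, from base 1 to 20, and the Igfals match shown lay 58 to 50 bases before 1 of its starts. Not shown are an Igfals match from base -236 to -228 of another start and that of the first Bcl6 window, from -118 to -110. The windows of Ghr, Stat5a, Stat5b, Igf1 and Cux2 did not hold the letters, and the DR4 motif of LXR response elements (exact letters AGGTCA repeated after a gap of 4 bases, on the strand of the gene or the other) was in none of the 16 windows and in 0.0152% of all. A match describes the sequence only, and binding was not measured in these data.

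Levels below are log2 signals relative to the 75th percentile of the array, so that 0 is the brightness which 25% of spots exceeded. Differences are log2 differences ± SE from limma fitted on all genes, with a Benjamini-Hochberg adjusted p per comparison, and "rose" or "fell" means an adjusted p under 0.05. The deleted receptors checked the labels: Nr1h3 (LXR alpha) was lower in knockout mice by a log2 difference of -9.05 ± 0.29 (normal diet, adjusted p = 3.02e-13) and -9.00 ± 0.29 (Western diet, adjusted p = 1.67e-13), without overlap. Nr1h2 (LXR beta) was lower by -5.39 ± 0.31 (adjusted p = 1.05e-09) and -5.43 ± 0.31 (adjusted p = 1.5e-10), again without overlap. Replicates of a group correlated with r of 0.9504 to 0.9902 across genes. The 75th percentile itself was 339.7 to 435.1 intensity units in knockout mice on Western diet and 170.3 to 330.8 in the other 3 groups. With arrays centred on their median instead, the median of all genes moved from -0.16 to -0.26 for the genotype difference on Western diet and from -0.03 to 0.08 for the diet difference in wild-type mice.

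**Figure D1:**
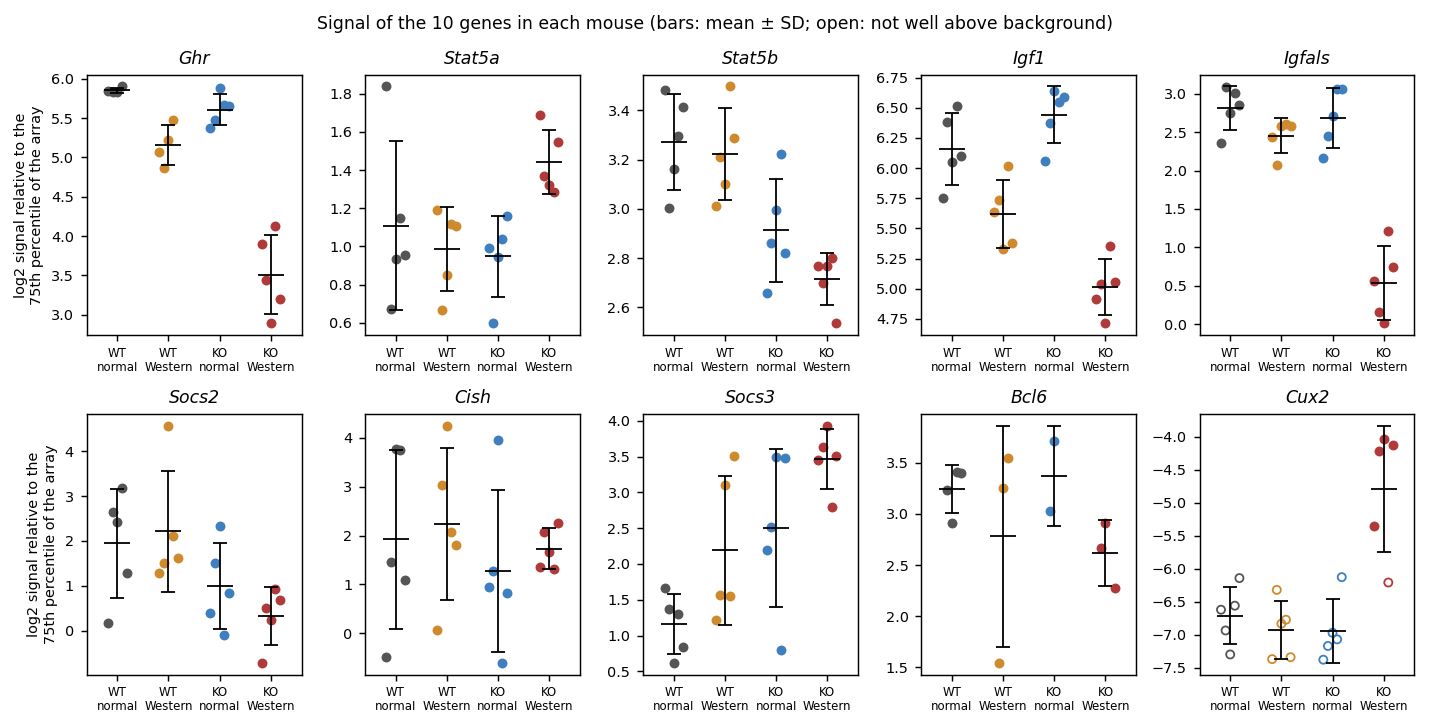
Log2 signal relative to the 75th percentile of the array (vertical axis) of the 10 genes in each mouse, by group (WT wild-type, KO knockout; horizontal axis). Points are mice, bars are mean ± SD, and open points are values not well above background. The knockout mice on Western diet lie below all other mice for Ghr (2.89 to 4.13) and Igfals (0.0087 to 1.21).

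On normal diet the axis of knockout liver differed from wild-type in 1 gene, and on Western diet in 8 of 10. On normal diet 0 members rose and 1, Stat5b, fell, where 19.7% of all genes changed and 8.39% fell. On Western diet 3 members rose (Stat5a, Socs3 and Cux2; 25% of all genes rose) and 5 fell (Ghr, Stat5b, Igf1, Igfals and Socs2; 32.7% of all genes fell). Because Cux2 passed the filter only through its high group, its call is partly set by the filter. With genes well above background on all 20 arrays 9 members were tested, and 2 rose and 5 fell. By that filter 3012 of 13777 genes rose and 5212 fell. The groups did not overlap for 6 members on Western diet, against 42.3% of all genes, and for 0 on normal diet, against 14.9%. Diet changed 0 members in wild-type mice, where 5.97% of all genes changed; limma gave 3 members (Ghr, Igf1 and Socs3) an unadjusted p under 0.05 there, and Ghr was the 1 member without overlap, against 8.21% of all genes. In knockout mice 2 members rose with Western diet (Stat5a and Cux2, 22.6% of all genes) and 3 fell (Ghr, Igf1 and Igfals, 27.8% of all genes). Of all genes 50.4% changed in either direction. The 2 diets did not overlap for 5 members (Ghr, Stat5a, Igf1, Igfals and Bcl6), against 34.4% of all genes. These were not the 5 called: Cux2 overlapped, and Bcl6, with 3 and 2 values, was not called. Without Cux2, by the filter on all 20 arrays, 1 of 9 rose and 3 fell, where 2921 of 13780 genes rose and 4342 fell. The diet difference itself differed between genotypes for 4 members (Ghr, Igf1, Igfals and Cux2), against 27.6% of all genes. By the filter on all 20 arrays, without Cux2, it did so for 3 of 9 members, where 1586 of 13772 genes rose and 2404 fell. The members' median difference was -0.51 between genotypes on Western diet (all genes -0.16) and -0.43 between diets in knockout mice (all genes -0.12). The knockout groups and diet groups are shared between comparisons, so these counts are not independent of each other. With normexp background correction the share of higher among all called genes moved from 44.9% to 55.8% for diet in knockout mice and from 46.7% to 57.1% for the interaction, and with median centring from 54.5% to 66.2% for diet in wild-type mice.

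**Figure D2:**
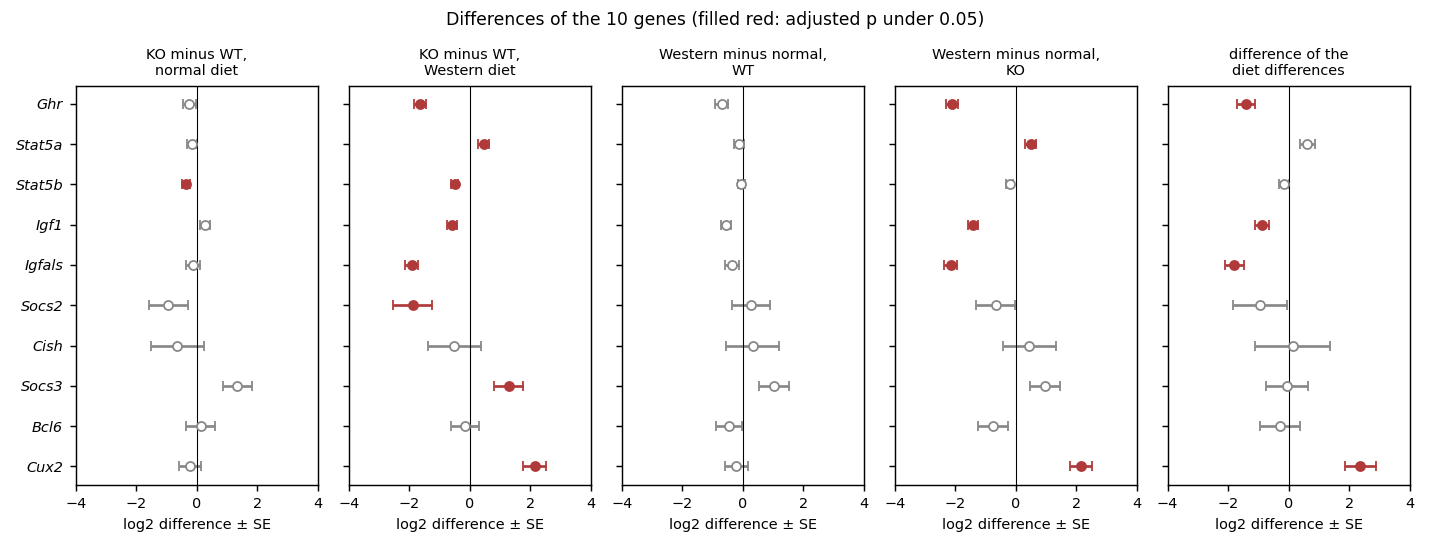
Log2 difference ± SE (horizontal axis) of each gene (rows) in the 5 comparisons (WT wild-type, KO knockout). Filled red points have an adjusted p under 0.05. Most red points lie in the panels for genotype on Western diet and for diet in knockout mice, with Ghr at -1.65 and -2.10 and Igfals at -1.92 and -2.15.

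The receptor gene Ghr was bright in wild-type liver and in knockout liver on normal diet, and fell in knockout mice on Western diet. Its standing probe (A_51_P499854, mm8 chr15:3268107-3268166, annotated to transcript variant 1, which encodes the full receptor) lost the value of mouse 5 in both wild-type groups to outlier spots. On normal diet Ghr was at 5.84, 5.84, 5.84 and 5.90 in wild-type mice 1 to 4 and at 5.37, 5.47, 5.88, 5.67 and 5.65 in the knockout mice. On Western diet it was at 5.08, 4.87, 5.22 and 5.48 in wild-type mice and at 3.90, 3.44, 2.89, 4.13 and 3.195 in knockout mice. The knockout mice on Western diet lay below every other mouse, and the normal diet genotypes overlapped. Between genotypes Ghr differed by -0.25 ± 0.21 with normal diet (adjusted p = 0.438), and with Western diet it fell 3.14-fold (-1.65 ± 0.21, adjusted p = 3.93e-06). Between slides that held both groups the Western diet difference ran from -2.29 to -1.09. Western diet lowered Ghr by 2.10 ± 0.19 on the log2 scale in knockout mice (adjusted p = 2.33e-07, 4.28-fold). In wild-type mice the diet difference was -0.69 ± 0.22 and did not pass (adjusted p = 0.073), although the 4 values on each diet did not overlap. The difference between these diet differences was -1.40 ± 0.29 (adjusted p = 0.00195).

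Ghr had 4 further probes, and 4 of the 4 fell in knockout mice on Western diet, against wild-type mice and against normal diet. A_52_P680935 (chr15:3277988-3278047) and A_52_P680941 (an exon junction between 3283509 and 3290961) are annotated to transcript variant 2, which encodes the short form that circulates as growth hormone binding protein. Whether these probes also read variant 1 was not determined. A_52_P680935 averaged 5.98 ± 0.19 and 5.67 ± 0.27 (SD, n = 5 and 5) in wild-type and knockout mice on normal diet. On Western diet it averaged 5.27 ± 0.26 (SD, n = 4) in wild-type and 2.74 ± 0.52 (SD, n = 5) in knockout mice. The genotype difference on Western diet was -2.54 ± 0.22 for this probe (adjusted p = 4.43e-08) and -2.77 ± 0.24 for A_52_P680941 (adjusted p = 3.01e-08). The gap to the variant 1 probe was tested only in mice with a value on both probes. In knockout mice the fall with Western diet was larger for both than for the variant 1 probe, by a log2 gap of -0.84 for A_52_P680935 and -1.10 for A_52_P680941 (exact permutation test of the gap per mouse, two-sided p = 0.00794 for each, the smallest that 5 against 5 mice allow; adjusted over 8 comparisons, 0.0318). On Western diet the gap between genotypes was -0.74 for A_52_P680935 (exact permutation p = 0.0357, adjusted 0.0714, n = 5 and 3) and -1.04 for A_52_P680941 (exact permutation p = 0.0159, adjusted 0.0424, n = 5 and 4). This comparison of probes was chosen after their values had been seen. The other probes, A_52_P54106 and A_52_P633550, gave genotype differences on Western diet of -2.80 ± 0.36 (adjusted p = 3.12e-06) and -2.22 ± 0.30 (adjusted p = 4.87e-06).

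**Figure D3:**
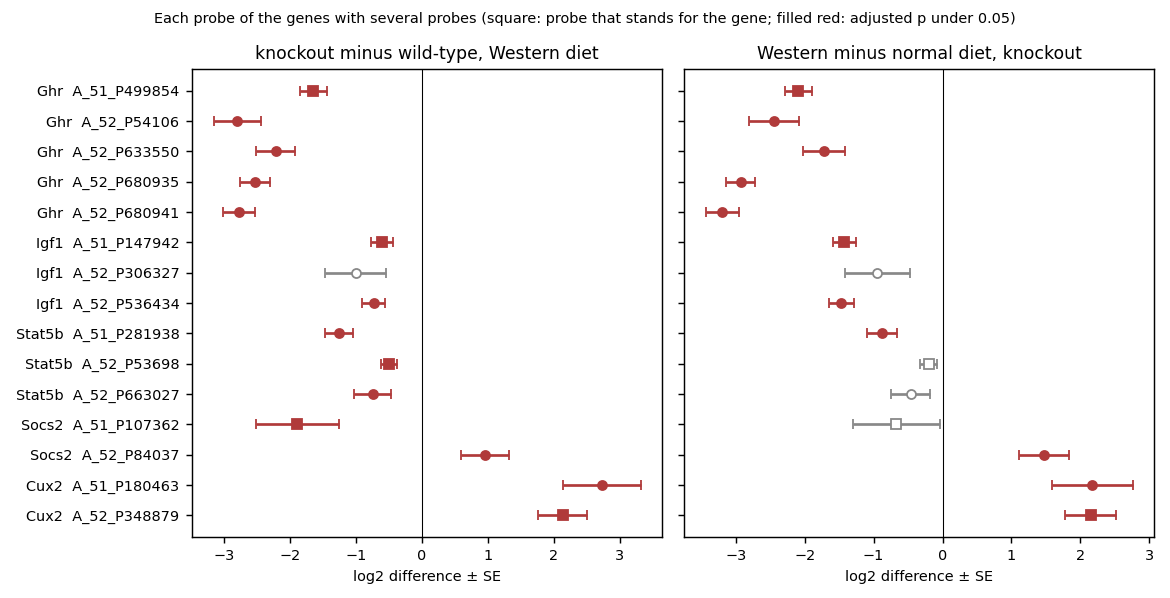
Log2 difference ± SE (horizontal axis) of every probe (rows) of the 5 genes with more than 1 probe, for knockout minus wild-type on Western diet and for Western minus normal diet in knockout mice. Squares mark the probe that stands for the gene and filled red points an adjusted p under 0.05. The 5 Ghr probes lie at -2.80 to -1.65 in the first comparison, and the 2 Socs2 probes lie on opposite sides of 0 in both.

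The transcription factor genes moved in opposite directions. Stat5b, the STAT5 gene that carries most of the growth hormone signal in liver, fell in knockout mice on both diets by its standing probe (A_52_P53698, chr11:100596875-100596934). On normal diet Stat5b was at 3.48, 3.003, 3.16, 3.30 and 3.41 in wild-type mice and at 2.66, 2.86, 2.995, 3.22 and 2.82 in knockout mice, which overlapped. On Western diet it was at 3.01, 3.21, 3.099, 3.50 and 3.29 in wild-type mice and at 2.77, 2.70, 2.77, 2.80 and 2.53 in knockout mice, without overlap. Stat5b fell by genotype 1.28-fold under normal diet (-0.36 ± 0.12, adjusted p = 0.0444) and 1.42-fold under Western diet (-0.51 ± 0.12, adjusted p = 0.00155), and -0.96 to -0.24 within slides on Western diet. The normal diet call was lost in 23 of 34 alternatives, among them leaving out any 1 of 13 arrays (adjusted p from 0.0505 to 0.129) and a slide block (adjusted p = 0.121). The weaker probes A_51_P281938 (-1.27 ± 0.22, adjusted p = 6.44e-05) and A_52_P663027 (-0.75 ± 0.28, adjusted p = 0.0265) fell on Western diet too. A_51_P281938 also fell with Western diet in knockout mice (-0.88 ± 0.22, adjusted p = 0.00235), where the standing probe gave -0.20 ± 0.12 (adjusted p = 0.186).

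Stat5a, the second STAT5 gene, which lies beside Stat5b on chromosome 11 (A_51_P152765, chr11:100700920-100700979), rose in knockout mice on Western diet. On Western diet Stat5a was at 1.19, 0.67, 0.85, 1.12 and 1.11 in wild-type mice and at 1.69, 1.37, 1.32, 1.29 and 1.55 in knockout mice. On normal diet the knockout mice had 0.99, 0.60, 0.95, 1.04 and 1.16. The knockout mice on Western diet therefore lay above both of these groups, while wild-type mouse 1 on normal diet, at 1.84, was higher still. The difference was 0.46 ± 0.18 between genotypes on Western diet (adjusted p = 0.0345, within slides 0.43 to 0.65) and 0.50 ± 0.18 between diets in knockout mice (adjusted p = 0.026). The genotype call was lost with median centring (0.35, adjusted p = 0.225), with no filter, with a slide block, and when any 1 of 4 Western diet mice was left out, namely wild-type 2 or 3 and knockout 1 or 5 (adjusted p from 0.0674 to 0.0926). The diet call was lost with median centring (0.55, adjusted p = 0.0752) and when knockout mouse 2 of the normal diet group, or 1 or 5 of the Western diet group, was left out (adjusted p from 0.053 to 0.0773).

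Igfals encodes the acid-labile subunit of the circulating IGF1 complex (A_51_P277088, chr17:24608906-24608965). On normal diet it was at 2.37, 3.09, 2.75, 3.02 and 2.85 in wild-type mice and at 2.17, 2.45, 2.71, 3.06 and 3.07 in knockout mice. With Western diet the values were 2.44, 2.07, 2.58, 2.61 and 2.58 in wild-type mice and 0.56, 0.15, 0.0087, 1.21 and 0.74 in knockout mice. The genotypes overlapped on normal diet, and the knockout mice on Western diet lay below all other mice. Between genotypes Igfals differed by -0.12 ± 0.22 with normal diet (adjusted p = 0.734) and fell 3.78-fold with Western diet (-1.92 ± 0.22, adjusted p = 7.24e-07, -2.06 to -1.36 within slides). Western diet lowered Igfals by 2.15 ± 0.22 on the log2 scale in knockout mice (adjusted p = 2.93e-07). The diet difference in wild-type mice was -0.36 ± 0.22 (adjusted p = 0.391), and that between the diet differences was -1.80 ± 0.31 (adjusted p = 0.00036).

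Igf1, the growth factor itself, fell with Western diet in knockout mice by less than Igfals in its point estimate; the 2 falls were not tested against each other. Its standing probe (A_51_P147942, chr10:87360570-87360629) is spotted 10 times on each array. On normal diet Igf1 was at 5.75, 6.39, 6.05, 6.52 and 6.10 in wild-type mice and at 6.06, 6.37, 6.64, 6.55 and 6.59 in knockout mice. With Western diet the values were 5.64, 5.73, 5.33, 6.02 and 5.38 in wild-type mice and 4.91, 5.04, 4.71, 5.35 and 5.06 in knockout mice. The knockout mice thus held both the highest group mean, on normal diet, and the lowest, on Western diet. Western diet lowered Igf1 by 1.43 ± 0.17 on the log2 scale in knockout mice (adjusted p = 1.38e-06, 2.69-fold, -1.93 to -1.15 within slides). In wild-type mice the diet difference was -0.54 ± 0.17 (adjusted p = 0.0628), and the difference between the diet differences was -0.88 ± 0.24 (adjusted p = 0.00915). Between genotypes Igf1 differed by 0.28 ± 0.17 with normal diet (adjusted p = 0.261; called higher with quantile normalization, 0.35, adjusted p = 0.0471, and normexp, 0.34, adjusted p = 0.0408) and fell 1.52-fold with Western diet (-0.60 ± 0.17, adjusted p = 0.0047). The Western diet genotype groups overlapped, the difference ran from -1.02 to 0.03 within slides, and quantile normalization (-0.28, adjusted p = 0.0534) and the authors' deposited values (-0.28, adjusted p = 0.0518) ended the call. A_52_P536434, annotated to another Igf1 transcript, gave -0.73 ± 0.18 for this difference (adjusted p = 0.00173), and A_52_P306327, annotated to a cDNA clone, gave -1.01 ± 0.47 (adjusted p = 0.0721).

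Socs2, an inhibitor of growth hormone signalling that STAT5 induces, was read by A_51_P107362 (chr10:94842120-94842179). On normal diet Socs2 was at 0.17, 2.64, 2.42, 3.19 and 1.29 in wild-type mice and at 0.38, 1.52, 2.34, -0.10 and 0.84 in knockout mice. With Western diet the values were 1.27, 1.51, 4.57, 2.11 and 1.62 in wild-type mice and -0.72, 0.51, 0.23, 0.94 and 0.67 in knockout mice. The Western diet genotypes did not overlap, and those on normal diet did. The difference on Western diet was -1.89 ± 0.64 (adjusted p = 0.0166, 3.71-fold, -3.63 to -1.28 within slides), and without wild-type mouse 3, the highest, it was -1.30 (adjusted p = 0.0539). The second Socs2 probe went the other way. A_52_P84037 (chr10:94817801-94817860), annotated to a cDNA clone and dim at -3.06 on average, rose by 0.96 ± 0.37 between genotypes on Western diet (adjusted p = 0.03) and by 1.47 ± 0.37 with Western diet in knockout mice (adjusted p = 0.00251). The mean of both probes ended the call (-0.46, adjusted p = 0.406), so the direction for Socs2 depends on the probe.

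Cish, the inhibitor with paired STAT5 motifs at its start, passed in 0 of 5 comparisons, and in 0 by limma's unadjusted p. Cish (A_51_P470715, chr9:107159966-107160025) was at -0.48, 1.47, 3.77, 3.76 and 1.09 in normal diet wild-type mice and at 0.05, 3.04, 4.25, 2.06 and 1.80 on Western diet. In knockout mice it was at 0.95, 1.27, 3.96, -0.61 and 0.82 on normal diet and at 1.36, 2.07, 1.66, 1.32 and 2.26 on Western diet. The groups overlapped throughout, and 3 of them held both very high and very low mice. The within-group SD was 1.84, 1.56 and 1.66 in the first 3 groups and 0.42 in the last (n = 5 each), and this difference in spread was not tested. The genotype difference on Western diet was -0.51 ± 0.88 (adjusted p = 0.638).

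Socs3, which cytokines such as IL-6 as well as growth hormone induce, rose in knockout mice on Western diet (A_51_P474459, chr11:117782256-117782315). On normal diet Socs3 was at 1.67, 1.37, 0.62, 1.30 and 0.84 in wild-type mice and at 2.20, 2.52, 3.49, 0.80 and 3.48 in knockout mice. With Western diet the values were 1.21, 1.57, 3.102, 1.55 and 3.51 in wild-type mice and 3.46, 3.64, 3.93, 2.79 and 3.52 in knockout mice. Group means were lowest in wild-type mice given normal diet and highest in knockout mice on Western diet, and each pair of genotypes overlapped. By genotype Socs3 rose 2.42-fold on Western diet (1.28 ± 0.49, adjusted p = 0.0316, -0.31 to 2.36 within slides), and the normal diet difference was 1.34 ± 0.49 (adjusted p = 0.0611). On normal diet it passed with a slide block (1.55, adjusted p = 0.0474), with trended moderation (adjusted p = 0.0499) and without knockout normal diet mouse 4 (1.77, adjusted p = 0.00694) or wild-type Western diet mouse 5 (adjusted p = 0.0444). The Western diet call was lost without any 1 of wild-type Western diet mice 1, 2 and 4 or knockout Western diet mice 2, 3 and 5 (adjusted p from 0.0523 to 0.0887). The diet differences were 1.03 ± 0.49 in wild-type mice (adjusted p = 0.251) and 0.97 ± 0.49 in knockout mice (adjusted p = 0.108).

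The sex-pattern repressors were the least well measured members. Bcl6 (A_52_P161495, chr16:23880423-23880482) kept 12 of 20 values, since outlier spots removed the other 8. It was at 3.24, 2.92, 3.41 and 3.40 in 4 normal diet wild-type mice and at 1.54, 3.25 and 3.55 in 3 given Western diet. In knockout mice it was at 3.03 and 3.72 on normal diet and at 2.67, 2.91 and 2.28 on Western diet. Bcl6 passed in 0 comparisons (0 by limma's unadjusted p), with a diet difference of -0.75 ± 0.50 in knockout mice (adjusted p = 0.242, n = 3 and 2). Wild-type mouse 2 on Western diet, at 1.54, stood apart from its group: without it Bcl6 fell between genotypes on Western diet (-0.78, adjusted p = 0.0329) and between diets in knockout mice (-0.75, adjusted p = 0.0425).

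Cux2 was not well above background on any of the 15 arrays of the other 3 groups and was so on 4 of 5 arrays of knockout mice on Western diet. By its standing probe (A_52_P348879, chr5:122156086-122156145) it was at -5.36, -4.22, -4.04, -6.21 and -4.13 in those mice. The mice of the other groups lay between -7.38 and -6.13. Cux2 was thus at least 1.3-fold higher than in wild-type mice on Western diet (2.14 ± 0.37 as measured, adjusted p = 7.86e-05) and at least 1.2-fold higher than in knockout mice on normal diet (2.15 ± 0.37 as measured, adjusted p = 9.57e-05). Each bound sets the mean of all 5 mice against the dimmest signal well above background on the arrays of the other group. The second probe (A_51_P180463, chr5:122121055-122121114) was also above background on 4 of 5 of these arrays and gave at least 1.49-fold and 1.38-fold. With normexp correction, which adds an offset to dim signals, the genotype difference was 0.10 (adjusted p = 0.108).

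Within groups, mice with much Socs2 also had much Cish. Deviations from the group means over 20 mice were compared for all 45 pairs of members, and only Socs2 with Cish passed by Pearson's r (0.81, permutation p = 0.00026, adjusted over 45 pairs 0.0117). Spearman's rho was 0.69 (permutation p = 0.00417, adjusted 0.0938) and did not pass. Without the 2 mice farthest from the median in Socs2 r was 0.70 (permutation p = 0.00382, adjusted 0.172), and with slide effects removed it was 0.76 (permutation p = 0.00089, adjusted 0.0401). Values with slide effects removed were permuted within groups without regard to slide. Those p-values are therefore too small, and no call rests on them. The slides hold too few arrays for a correlation within a slide, and the adjusted p rose above 0.05 when mouse 1 of the wild-type or mouse 3 or 4 of the knockout group fed normal diet was left out (from 0.0517 to 0.0749). Igf1 and Igfals had r of 0.64 (permutation p = 0.00341, adjusted 0.0767) and rho of 0.67 (permutation p = 0.00348, adjusted 0.0938), with r of 0.48 without 2 mice (permutation p = 0.06). This pair passed without wild-type Western diet mouse 2, 3 or 5 (adjusted p from 0.0045 to 0.045). With slide effects removed its r was 0.70 (permutation p = 0.00194, adjusted 0.0437, too small for the same reason). Cish and Socs3 (r = 0.37, permutation p = 0.182; rho = 0.21, permutation p = 0.42) and Cish and Bcl6 (r = 0.02, permutation p = 0.96; rho = 0.19, permutation p = 0.67; 12 mice) did not pass either.

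**Figure D4:**
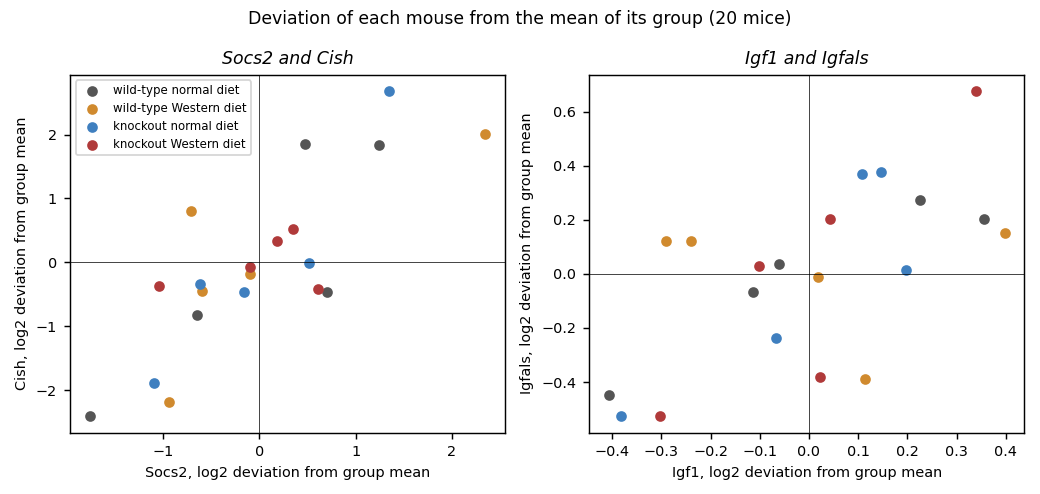
Deviation of each of 20 mice from the mean of its group, in log2 units, for Cish against Socs2 (left) and Igfals against Igf1 (right), coloured by group. Points rise together in both panels (r = 0.81 and 0.64), and the knockout mice on Western diet span a narrow range of Cish.

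The genes most like a member over all 20 arrays differed by member. Igfals was matched by Cmah (r = 0.98), Itih1 (0.98) and Nsun7 (0.98), and Igf1 by Sardh (0.96), Them7 (0.96) and Hsd17b10 (0.96). For Cish the closest named gene was Socs2 (0.72). Stat5a was matched by Gpr162 (0.80), Tnfaip2 (0.80) and Bcor (0.80). These correlations share the 4 groups and the arrays. Ghr and Bcl6, with missing values, were not ranked, and no match is given for Cux2, which was above background in 1 group.

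The counts of the lists below stand against these shares of all genes. Between genotypes on Western diet 25% rose and 32.7% fell (median -0.16), and with diet in knockout mice 22.6% rose and 27.8% fell (median -0.12). Between genotypes on normal diet 11.3% rose and 8.39% fell (median -0.06). With diet in wild-type mice 3.25% rose and 2.71% fell (median -0.03), and in the interaction 12.9% rose and 14.7% fell (median -0.08). With genes above background on all 20 arrays, 1319 of 13779 rose and 1340 fell between genotypes on normal diet. On Western diet 3012 of 13777 rose and 5212 fell. Diet raised 2921 of 13780 and lowered 4342 in knockout mice, and raised 481 of 13775 and lowered 474 in wild-type mice. In the interaction 1586 of 13772 rose and 2404 fell. Of 26 other genes that act at or near the receptor, 11 rose and 4 fell between genotypes on Western diet (median 0.39), and 11 rose and 3 fell with Western diet in knockout mice (median 0.38). Src, a kinase that the receptor can activate beside JAK2, rose by 2.25 ± 0.17 between genotypes (adjusted p = 3.81e-09), from -4.05 ± 0.15 to -1.79 ± 0.37 (SD, n = 5). Ptpn1, a phosphatase that dampens JAK2, rose by 1.44 ± 0.16 (adjusted p = 3.74e-07), Socs1, another SOCS inhibitor, by 1.36 ± 0.31 (adjusted p = 0.00109) and Igf2r, the clearing receptor of IGF2, by 1.25 ± 0.16 (adjusted p = 3.84e-06, n = 4 knockout mice). Insr, the insulin receptor, fell with Western diet in wild-type (-0.65 ± 0.17, adjusted p = 0.0244) and knockout mice (-1.10 ± 0.17, adjusted p = 2.29e-05). On normal diet 5 rose and 3 fell (median 0.05), among them Socs1 (1.26 ± 0.31, adjusted p = 0.0076) and Ptpn6, a phosphatase of blood cells (0.94 ± 0.18, adjusted p = 0.00125). In wild-type mice 0 rose and 1, Insr, fell, and in the interaction 5 rose and 2 fell. The wild-type count was 0 with median centring, the mean of all probes, a replicate block, and without wild-type normal diet mouse 4 or 5 or wild-type Western diet mouse 1, 2 or 4. With median centring 6 rose and 2 fell with diet in knockout mice, 3 rose and 2 fell on normal diet, and 2 rose and 1 fell in the interaction.

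Of 13 liver regulators known to act with STAT5, 2 rose and 7 fell between genotypes on Western diet (median -0.61), and 1 rose and 6 fell with Western diet in knockout mice (median -0.39). Cebpa, a hepatocyte transcription factor, fell by 1.37 ± 0.26 between genotypes (adjusted p = 0.000196) and by 1.61 ± 0.26 between diets (adjusted p = 4.96e-05). Foxa2, a pioneer factor, fell between genotypes (-1.23 ± 0.30, adjusted p = 0.00203), and Hnf4a, the central hepatocyte regulator, fell between diets (-0.89 ± 0.17, adjusted p = 0.00025). Trim24, a cofactor of nuclear receptors, rose in knockout mice whether the diet was normal (0.72 ± 0.17, adjusted p = 0.00591) or Western (1.15 ± 0.17, adjusted p = 1.45e-05). On normal diet 1 rose and 1, Foxa1, fell (-1.11 ± 0.37, adjusted p = 0.0442); in wild-type mice 0 passed, and in the interaction 0 rose and 2 fell. The fall on normal diet was lost with no filter and without any 1 of 7 arrays (wild-type normal diet 3, 4 and 5, knockout normal diet 5, knockout Western diet 1, 2 and 3), and the rise with median centring. With median centring 0 rose and 4 fell with diet in knockout mice.

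Liver genes whose sex bias growth hormone sets were low or high with the genotype in different ways. Of 19 male-biased genes tested, 0 rose and 18 fell between genotypes on Western diet (median -3.66), and 0 rose and 19 fell with Western diet in knockout mice (median -3.54). Cyp4a12a, a fatty acid hydroxylase of male liver, was at 6.58 ± 0.16 (SD, n = 4) in wild-type and -1.67 ± 2.38 (SD, n = 5) in knockout mice on Western diet, a log2 difference of -8.25 ± 0.80 (adjusted p = 2.3e-07). Hsd3b5, a steroid dehydrogenase of male liver, fell by 9.18 ± 0.64 on the log2 scale (adjusted p = 1.81e-09), with 4 of 5 knockout arrays well above background. On normal diet 1 male-biased gene rose and 4 fell (median -0.35), Hsd3b5 among the latter (-2.23 ± 0.64, adjusted p = 0.0189), in wild-type mice 0 rose and 2 fell with Western diet, and in the interaction 0 rose and 18 fell. The wild-type count was 1 with median, quantile or normexp scaling, the deposited values, no filter, or a slide or replicate block. It was also 1 without any single wild-type array except Western diet mouse 4. With genes above background on all 20 arrays 1 rose and 2 fell on normal diet.

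Of 25 female-biased genes tested, 15 rose and 2 fell in knockout mice on normal diet (median 1.79, or 1.34 with 5 genes below background set at their bound). With genes above background on all 20 arrays 8 rose and 2 fell on normal diet, and 6 rose and 4 fell between genotypes on Western diet, since some genes passed the filter only through the groups where they are high. On normal diet Stat5b was the member that fell, a call lost in 23 of 34 alternatives. Cux2 was not well above background there and Bcl6 had 4 and 2 values. A link between these members and the female-biased genes was not tested. Cyp2b9, a female-biased cytochrome P450, rose by 4.28 ± 0.53 (adjusted p = 1.73e-05), from -0.87 ± 0.54 to 3.42 ± 0.62 (SD, n = 5), and Cyp2b13 by 3.67 ± 0.58 (adjusted p = 0.000196). On Western diet 16 rose and 4 fell (median 2.40), and 8 rose and 6 fell with Western diet in knockout mice (median 0.07; 3 and 6 with genes above background on all 20 arrays). The largest differences on Western diet were those of Atp6v0d2 and Prom1 (5.14 ± 0.58, adjusted p = 5.47e-07), which are also known from macrophages and from bile duct and progenitor cells. Atp6v0d2 was not well above background on any wild-type array and passed the filter only through knockout mice. Its adjusted p of 8.32e-12 by limma is of the difference as measured. Only the bound of at least 31.7-fold higher holds, and the bound was not tested. In wild-type mice 6 rose and 6 fell, with Cyp3a16 (3.11 ± 0.32, adjusted p = 1.13e-05) and Cyp3a44 (2.72 ± 0.26, adjusted p = 4.25e-06) rising, and in the interaction 8 rose and 4 fell (4 and 3, and 2 and 4, with genes above background on all 20 arrays).

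Markers of other cells moved with the Western diet genotype difference. In bulk liver, fewer cells of a type and less RNA per cell cannot be told apart. Of 14 hepatocyte markers 0 rose and 11 fell (median -0.62), with a summed level (signal as a multiple of the 75th percentile) of 1313 to 1548 in knockout mice on Western diet and 1851 to 3158 in the other groups. The 75th percentile was itself higher in knockout mice on Western diet (339.7 to 435.1 against 170.3 to 330.8 intensity units). A signal of the same intensity therefore reads lower there, and the part of this scaling in the hepatocyte difference was not tested. Ttr fell by 2.03 ± 0.18 on the log2 scale (adjusted p = 2.6e-08) and G6pc by 2.85 ± 0.32 (adjusted p = 5.25e-07). These 2 markers moved as far as Ghr and Igfals, but they were named for the size of their differences. Both lay well beyond the list median of -0.62. Apob had the higher mean in knockout mice on Western diet (6.31 against 5.61 in wild-type mice, n = 5 and 4), which did not pass. Of 16 macrophage markers 12 rose and 2 fell (median 2.49), and their sum was 278.9 to 318.5 in knockout mice on Western diet and 17.5 to 101.5 in the other groups. Trem2, a receptor of lipid-laden macrophages, rose by 7.19 ± 0.69 (adjusted p = 2.07e-07, n = 3 knockout mice after outlier removal), and Clec4f, a marker of resident macrophages, fell (-8.10 ± 0.84, adjusted p = 2.05e-07). Stellate cell and fibroblast markers (8 of 10 rose, 0 fell, median 2.92; sum 87.0 to 199.7 against 9.44 to 77.6), bile duct markers (6 of 6 rose, median 2.67; sum 147.2 to 207 against 12.6 to 146.3) and neutrophil markers (4 of 5 rose, 0 fell, median 2.52; sum 11.5 to 49.4 against 0.946 to 10.2) went the same way. With stellate genes below background set at their bound the median was 2.74, and with bile duct genes so set it was 2.63. Of 10 T and B cell markers 4 rose and 2 fell (median 0.61; sum 20.01 to 30.4 against 1.49 to 18.0), and of 8 endothelial markers 1 rose and 1 fell (median -0.36). Cftr and Lox were not well above background on any array of wild-type mice on Western diet. On normal diet the genotype difference held 6 of 10 T and B cell markers that rose (median 1.20), 6 of 16 macrophage markers that rose and 2 that fell (median 0.90), and 1 of 14 hepatocyte markers that rose and 2 that fell (median -0.13). With Western diet in knockout mice 0 hepatocyte markers rose and 12 of 14 fell (median -0.68), 12 of 16 macrophage markers rose and 1 fell (median 2.07), 8 of 10 stellate markers rose (median 2.58) and 6 of 6 bile duct markers rose (median 2.40). In wild-type mice Western diet raised 1 hepatocyte marker, lowered 1 (median -0.30) and changed 0 macrophage markers (median 0.59, or 0.49 with genes below background at their bound). The part of these cells in the values of Ghr, Igf1, Igfals, Stat5a, Stat5b, Socs2, Socs3 and Cux2 was not tested.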

How the data were processed

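Liver RNA of 20 mice was hybridised to single-colour Agilent arrays. Per the file headers and the submitters' processing notes, the authors extracted signals with Agilent Feature Extraction 9.5; the deposited intensity per spot is background-subtracted and not normalized between arrays. The authors' deposited value table holds log2 values (24493 probes, normalized by a step not given in the sources used here) and served as an alternative. Positions are mm8, per the file headers.

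Control spots and outlier spots were left out, log2 intensity was set relative to the array's 75th percentile, repeat spots of a probe were averaged, and each gene was read by its brightest probe (mean over 20 arrays). A gene was kept if 4 or more of the 5 arrays in any group read it well above background. 4 group means were fitted on all 20 arrays with limma 3.58.1 (R 4.3.3; lmFit, eBayes; 16 residual and 2.23 prior degrees of freedom), with Benjamini-Hochberg adjustment within each comparison. Individual probes were tested in the same fit over all probes. Scripts were tested on simulated data. Sequence searches, permutations (100000 resamples within groups) and plots used Python 3.11.15. The number of arrays limits precision.

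Named were all 10 members, the 2 deleted genes, up to 4 genes with the largest difference per list and comparison, and the 3 genes most like each member; Cftr and Lox were named after their values were seen. Members and lists were chosen with earlier results of these data known. Of the probes, 23374 were named by accession, 6733 by current symbol, 2919 by synonym and 8148 by the file's own name. Other settings tried were median, quantile and normexp scaling, the deposited log2 values, filters, outlier spots kept, the mean of all probes, slide and replicate blocks, moderation, single slides, other probes and each array left out.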

Additional observations from a re-analysis of the deposited data

Results flagged for a closer look

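In wild-type mice on normal diet, Ghr of mouse 4 (5.9036) lay apart from the other 3 values, the nearest of which was 5.84, with a gap of 0.945 of the group's range. In wild-type mice on Western diet, Socs2 of mouse 3 (4.5694) lay apart, the nearest value being 2.11, with a gap of 0.745 of the range. These were 2 of 37 sets of values examined, and chance gives about 1 in 20. The diet difference differed between genotypes, by the tested interaction, for Ghr (-1.40 ± 0.29, adjusted p = 0.00195), Igf1 (-0.88 ± 0.24, adjusted p = 0.00915), and Igfals (-1.80 ± 0.31, adjusted p = 0.00036). For Cux2 the interaction was 2.37 as measured, but its probe was not well above background in 3 of 4 groups and passed the filter only through the high group; only the bounds of at least 1.3-fold against wild-type and 1.2-fold against normal diet hold.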

How the results depend on the processing

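The calls on Ghr and Igfals between genotypes on Western diet, between diets in knockout mice and for the interaction held under every alternative tried. On normal diet the count of members called was 0 with median scaling, the deposited values, no filter, the mean of all probes or only the 2 groups, 2 with a replicate block or trended moderation, and 0 to 2 with single arrays left out. For diet in wild-type mice it was 1 with a replicate block, trended moderation or only the 2 groups, and 0 to 1 with single arrays left out. Of the 45 pairs 0 passed without the 2 extreme mice and 0 to 2 with single arrays left out. With slide effects removed 2 had an adjusted p under 0.05, but that permutation ignored the slides, so its p-values are too small for a call. Arrays of the same number deviated together on the same slide (mean r 0.30) and not on different slides (-0.11), so the numbers do not pair the mice. Arrays of different numbers on the same slide deviated together too (mean r 0.28). The main fit held no slide term, and only 3 slides held an array of every group. With the replicate block Socs3 on normal diet (1.34, adjusted p = 0.0435), the Stat5a interaction (0.62, adjusted p = 0.0246) and Igf1 for diet in wild-type mice (-0.54, adjusted p = 0.0283) also passed.

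Signs turned, for differences that had not passed, in these settings, and the cause was not tested. Median scaling gave Stat5b 0.0558 for diet in wild-type mice. Quantile normalization and normexp gave Cux2 0.11 and 0.0467 on normal diet and 0.22 and 0.0906 for diet in wild-type mice, Bcl6 0.037 and 0.0322 between genotypes on Western diet, and Socs3 0.13 and 0.16 for the interaction. The deposited values gave Socs3 0.12 for the interaction, Bcl6 0.0398 for diet in wild-type mice and -0.58 for Cish with Bcl6. Kept outlier spots gave Bcl6 0.0048 for diet in wild-type mice, and the slide and replicate blocks gave it 0.0010 and 0.0616 between genotypes on Western diet. Slide removal and leaving out 2 mice gave Cish with Bcl6 -0.10 and -0.12. The mean of both probes gave Socs2 0.40 for diet in knockout mice and 0.29 for the interaction. Other probes, chosen after seeing the data, gave Socs2 0.96 between genotypes on Western diet (where the standing probe fell), -0.0496 and 1.47 for diet in wild-type and knockout mice and 1.52 for the interaction, Cux2 0.0376 on normal diet, and Igf1 0.61 and Stat5b 0.0585 for diet in wild-type mice.

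Leaving out single arrays also turned signs of differences that had not passed. On normal diet the ranges were -0.22 to 0.48 for Bcl6, -0.24 to 0.0075 for Igfals and -0.27 to 0.0203 for Stat5a, and between genotypes on Western diet -0.78 to 0.22 for Bcl6. For diet in wild-type mice they were -0.12 to 0.0036 for Stat5b, -0.84 to 0.16 for Bcl6, -0.28 to 0.87 for Cish, -0.31 to 0.59 for Socs2 and -0.23 to 0.0599 for Stat5a. For diet in knockout mice Cish ran from -0.0175 to 1.12. For the interaction the ranges were -0.91 to 0.0905 for Bcl6, -0.49 to 0.27 for Socs3 and -0.42 to 0.80 for Cish, and r of Cish with Bcl6 ran from -0.16 to 0.29. The lists moved too: under median scaling 8 of the genes acting at the receptor changed with diet in knockout mice, against 14, 3 against 7 in the interaction and 5 against 8 on normal diet, and 4 of the liver regulators against 7 with diet in knockout mice; with the mean of all probes 4 receptor genes changed on normal diet, and 4 liver regulators did, against 2, with quantile normalization, the deposited values, the strictest filter, the mean of all probes or trended moderation. For diet in wild-type mice Ghr passed without knockout Western diet mouse 3 or 4 (adjusted p = 0.0406 and 0.0374), and Igf1 without wild-type normal diet mouse 1 or wild-type Western diet mouse 4 (adjusted p = 0.0341 and 0.031). Median centring ended the Igf1 interaction call (-0.94, adjusted p = 0.0558), and normexp that of Cux2 (0.05, adjusted p = 0.674).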

Other observations

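Genes of the acute phase and of the IL-6 response, a cytokine pathway that also induces Socs3, are given here beside the shares of all genes. Of 23 such genes 6 rose and 7 fell between genotypes on Western diet (median 0.11, all genes -0.16), where 25% of all genes rose and 32.7% fell. Osmr, the oncostatin M receptor, rose from -1.34 ± 0.13 to 1.97 ± 0.63 (SD, n = 5 each; difference 3.32 ± 0.25, adjusted p = 4.01e-09 by limma). Lcn2, an iron-binding defence protein, rose by 7.84 ± 1.17 (adjusted p = 1.92e-05, 4 knockout mice), and Il1rn, the IL-1 receptor antagonist, by 5.03 ± 0.73 (adjusted p = 1.13e-05). Apcs, the main acute phase pentraxin of mice, rose on both diets (1.79 ± 0.38, adjusted p = 0.0023, and 2.21 ± 0.38, adjusted p = 6.34e-05). With Western diet 5 rose and 9 fell in knockout mice, against 22.6% and 27.8% of all genes. In wild-type mice 1, Il1r1, rose (1.23 ± 0.31, adjusted p = 0.0219) and 1, Serpina3n, fell (-0.97 ± 0.19, adjusted p = 0.00408). Of all genes 3.25% rose and 2.71% fell there.

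Endothelial markers held genes that moved apart with Western diet in knockout mice, where 1 of 8 rose and 4 fell (median -0.78). Of all genes 22.6% rose and 27.8% fell (median -0.12). Lyve1, a hyaluronan receptor of sinusoidal and lymphatic vessels, rose by 2.17 ± 0.32 (adjusted p = 1.69e-05). Pecam1, an adhesion molecule of vessel walls, fell by 1.49 ± 0.25 on the log2 scale (adjusted p = 8.33e-05), and Kdr, the main VEGF receptor, fell by 0.95 ± 0.23 (adjusted p = 0.00219).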
